A study of Mus musculus with 3 samples.

Results

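The PYHIN genes, also called the Ifi200 family, form a cluster on mouse chromosome 1. The 10 genes described here (Ifi203, Ifi204, Ifi205, Ifi207, Ifi208, Ifi209, Ifi211, Ifi213, Ifi214 and Aim2) were taken by symbol from the annotation carried in the deposited tables, and all 10 were found among 55536 annotated genes. The data came from 1 group of 3 libraries. Each was a ribosomal-RNA-depleted library of chromatin-bound RNA from C57BL/6J macrophages that were grown from bone marrow and taken 90 minutes after stimulation with lipid A at 100 ng/ml. The 3 biological replicates started from 1 µg, 250 ng and 500 ng of RNA (replicates 1, 2 and 3). They carry 1 donor label, and age and sex were not collected. No unstimulated library or other time was analysed here, so no value below is a response to lipid A. The p-values rest only on the spread between these 3 libraries, with each gene's variance drawn towards a value estimated from all genes tested.

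PYHIN proteins pair a pyrin domain, which binds other pyrin domains, with HIN domains, which bind double-stranded DNA, although some members lack 1 of these parts. The family is known from interferon-treated myeloid cells, where several genes are induced by type I interferon. Aim2 senses DNA in the cytosol and builds an inflammasome with the adaptor ASC (gene Pycard) and caspase-1, and the p204 protein of Ifi204 is the mouse protein most often set beside human IFI16 in nuclear and cytosolic DNA sensing. Lipid A is the part of bacterial lipopolysaccharide that Toll-like receptor 4 detects, a receptor that leads to NF-κB activity and, through IRF3, to interferon β.

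RefSeq promoter windows (GRCm38.p6, the build of the mm10 files), which run from 250 bases before to 50 bases after a start site, were matched by symbol to 9 of the 10 members. The core of the interferon-stimulated response element (ISRE), GAAANNGAA on either strand, lay upstream of the start site in 7 of the 9 members: Ifi203, Ifi205, Ifi207, Ifi208, Ifi211, Ifi213 and Ifi214. Anywhere in the window, bases after the start site included, it was found in 8.56% of all 32851 promoter windows of this length. That share counts windows and not genes. The 30 bases around it are shown because the members share both the core and much of what flanks it. Capitals mark the core, and in Ifi209 the 9 bases that stand in its place, found by placing the Ifi214 stretch on the Ifi209 window at its fewest mismatches.
Ifi203 (chr1:173942510-173942539, - strand): ttaagagctgggGAAATCGAAagctatgaa
Ifi205 (chr1:174031872-174031901, - strand): tcccaggccaggGAAATTGAAagctatgaa
Ifi211 (chr1:173913066-173913095, - strand): tccaaagccaggGAAATTGAAagctatgaa
Ifi207 (chr1:173741833-173741862, - strand): tccctagccaggGAAATCGAAaattaagaa
Ifi208 (chr1:173673595-173673624, + strand): tccgtctctgagGAAATCGAAagctatgaa
Ifi213 (chr1:173599328-173599357, - strand): tccgtctctgagGAAATCGAAagctatgaa
Ifi214 (chr1:173536019-173536048, - strand): tcagtctctgagGAAATCGAAagcgatgca
Ifi209 (chr1:173630768-173630797, + strand): tcaatctctgagTAAATCGAAagagatgca

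Relative to the start site, the core began at position -35 in Ifi203 (the second of its pair of RefSeq windows), -37 in Ifi211, -41 in Ifi207, -58 in Ifi208, -73 in Ifi213, -79 in Ifi214 and -134 in Ifi205. The RefSeq start sites of this Ifi203 window, of Ifi205 and of Aim2 lie downstream of the gene starts in the annotation of the files, so positions depend on the start chosen. Counted from 1 at the 5′ end of the printed stretch, Ifi209 differed from Ifi214 by G4A, G13T and C24A, and G13T falls on the first base of the core. The Ifi209 window therefore did not hold these letters. The whole upstream windows of this pair are shown because 94.4% of their aligned bases were identical. That of Aim2 is shown because, like that of Ifi209, it held no ISRE core. Its identity to the other 8 members was between 46.4 and 52.3%. Capitals in these 3 sequences mark motif matches: the ISRE core, TATA box letters TATAAA on either strand, AP-1 letters TGANTCA and the kB consensus.
Ifi214 (chr1:173535958-173536207, - strand): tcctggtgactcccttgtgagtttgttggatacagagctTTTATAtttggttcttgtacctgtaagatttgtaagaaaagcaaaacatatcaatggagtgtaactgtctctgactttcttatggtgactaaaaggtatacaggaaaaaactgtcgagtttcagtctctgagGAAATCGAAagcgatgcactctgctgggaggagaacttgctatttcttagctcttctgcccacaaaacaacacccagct
Ifi209 (chr1:173630609-173630858, + strand): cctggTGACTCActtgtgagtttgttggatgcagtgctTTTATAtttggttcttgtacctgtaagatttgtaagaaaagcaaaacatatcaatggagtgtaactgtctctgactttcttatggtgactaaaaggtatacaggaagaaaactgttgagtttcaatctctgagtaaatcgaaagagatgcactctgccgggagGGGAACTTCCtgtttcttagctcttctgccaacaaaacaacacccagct
Aim2 (chr1:173420354-173420603, + strand): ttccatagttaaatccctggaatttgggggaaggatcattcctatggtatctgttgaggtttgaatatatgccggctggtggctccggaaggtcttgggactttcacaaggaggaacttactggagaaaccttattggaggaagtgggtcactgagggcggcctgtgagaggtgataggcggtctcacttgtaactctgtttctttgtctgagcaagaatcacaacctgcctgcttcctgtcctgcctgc

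The Ifi209 window held AP-1 letters at position -245 and a kB consensus at position -49, which the Ifi214 window did not. Ifi203 held both too: AP-1 letters at -208 in its window with the ISRE core, and at -28 in its other window. That other window also held a kB consensus at -107. Among all promoter windows, 7.81% held AP-1 letters and 8.46% a kB consensus. No member window held the core of the gamma-activated site, TTCNNNGAA, which was found in 8.30% of all windows. The other close pairs were Ifi208 with Ifi213, at 87.9% identity, and Ifi207 with Ifi211, at 85.0%. Over the 28 pairs without Aim2 the median identity was 50.4%. A match of letters is a description of the window and was not tested for binding.

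The libraries held 11277198, 24965749 and 19794886 expected counts (replicates 1 to 3), of which 68.4, 40.2 and 50.3% fell in protein-coding genes. Macrophage markers were read throughout: 8 of 10 were above the reference median by the test used below, Itgam at 3.02 TPM was not called, and their summed TPM lay between 670 and 1157. Summed markers of T and NK cells reached 2.79 TPM at most, of B cells 0.79, of neutrophils 1.51, of mast cells and basophils 1.99, of dendritic cells 6.72, of erythroid cells and megakaryocytes 7.78 and of stromal and endothelial cells 3.38. Cd3e, Ncr1, Ly6g, Elane, Mpo, Cpa3, Mcpt8, Fcer1a and Hbb-bs were listed at 0 in all libraries. In bulk RNA, fewer cells of a type and less RNA per cell cannot be told apart.

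The members were unequal. TPM values scale reads by transcript length and to the same total in each library, which allows genes to be compared per length. In the alignment-based table, 3 members, Ifi203, Ifi204 and Ifi205, held 74.2, 73.3 and 69.2% of the summed TPM of the 10 genes in replicates 1 to 3. Ifi208 and Ifi214 held 0.429 and 0.246% of it as means. The summed TPM was 2060 in replicate 1, 412 in replicate 2 and 805 in replicate 3 (1092 ± 861, SD, n = 3), and without replicate 1 its mean was 609. In the alignment-free table it was 3096, 340 and 848. As a share of all expected counts in protein-coding genes, the family took 0.851, 0.254 and 0.386%.

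Ifi203, the most abundant member (chromosome 1, 173920407 to 173942672, minus strand, mm10), had 710 TPM in replicate 1, 143 in replicate 2 and 274 in replicate 3. Replicate 1 was the highest library and replicate 2 the lowest. Its exons overlap those of Mndal by 37 bases on the same strand, the one exonic overlap of a member with another gene. Its level, defined as log2(TPM + 1) less the median over protein-coding genes tested in that library, was 5.75 ± 0.94 (SD, n = 3), which is 53.8-fold on that scale. The reference median was 5.50, 3.70 and 4.93 TPM. A gene is called above or below when its level passes a bound of 1 log2 unit in limma's treat test with Benjamini-Hochberg adjustment over 13434 genes, and Ifi203 was above (adjusted p = 6.05e-05).

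Ifi204, which encodes p204, had 470, 73.4 and 145 TPM in replicates 1 to 3, and its level was 4.93 ± 1.13 (limma treat, adjusted p = 0.000271). Ifi205, whose product p205 has been linked to control of Asc expression in macrophages, had 348, 86.0 and 138 TPM and a level of 4.83 ± 0.81 (limma treat, adjusted p = 9.01e-05). The order of this pair turned between libraries: Ifi204 was the higher by 0.43 log2 units in replicate 1 and 0.07 in replicate 3, and the lower in replicate 2 (-0.23). They did not differ beyond their spread.

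Ifi211 had 187, 46.8 and 111 TPM and a level of 4.15 ± 0.76 (limma treat, adjusted p = 0.000175). Its gene lies within the span of Mndal, another PYHIN gene on the same strand, but their annotated exons do not overlap. Ifi207 had 148, 30.5 and 68.0 TPM and a level of 3.60 ± 0.89 (limma treat, adjusted p = 0.000709). Both genes were above the reference in every library by more than the bound.

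Aim2, the inflammasome sensor, had 72.3 TPM in replicate 1, 16.7 in replicate 2 and 24.9 in replicate 3, a level of 2.51 ± 0.86 (limma treat, adjusted p = 0.00477; 0.275 with a minimum mean count of 100). This TPM rested on few reads, 599, 336 and 422 expected counts, because short isoforms gave the gene an effective length of 591 to 797 bases. Ifi209, with 3052, 462 and 991 expected counts over 2893 to 3108 effective bases, had more reads than Aim2 in all 3 libraries and a lower TPM in all 3.

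Ifi213 had 33.2, 9.07 and 22.9 TPM and a level of 1.84 ± 0.67, and was above by a small margin (limma treat, adjusted p = 0.0239). Its call was lost with the posterior mean TPM (adjusted p = 0.061), with the alignment-free TPM (0.153), with a higher minimum count (level 0.77) and without replicate 3 (0.0995). Ifi209 had nearly the same mean level, 1.83, but a wider spread (SD 1.5, n = 3), with 70.0, 5.63 and 16.2 TPM, and was not called (limma treat, adjusted p = 0.158). Within libraries Ifi209 was the higher of the pair in replicate 1 and the lower in replicates 2 and 3. Ifi209 was called with the alignment-free TPM (adjusted p = 0.0352), with the test built from edgeR (0.0144), without a minimum count (0.0124) and without replicate 2 (0.0129).

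Ifi208 and Ifi214 were the low members. Ifi208 had 13.7, 0.80 and 3.46 TPM on 525, 59.0 and 171 expected counts, and a level of -0.21 ± 1.29. Ifi214 had 7.31, 0.76 and 1.61 TPM on 412, 82.3 and 119 expected counts, and a level of -0.75 ± 0.96. Neither was called, and both were at or over the reference median only in replicate 1 (levels 1.18 and 0.35). In all, 7 of the 10 members were called above and 0 below, where 21.3% of the 13434 genes tested were above and 21.3% below. The median level of the 10 was 3.06, and that of all genes tested was -0.21. The plot of TPM by library shows these values for both quantifications.

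**Figure D1:**
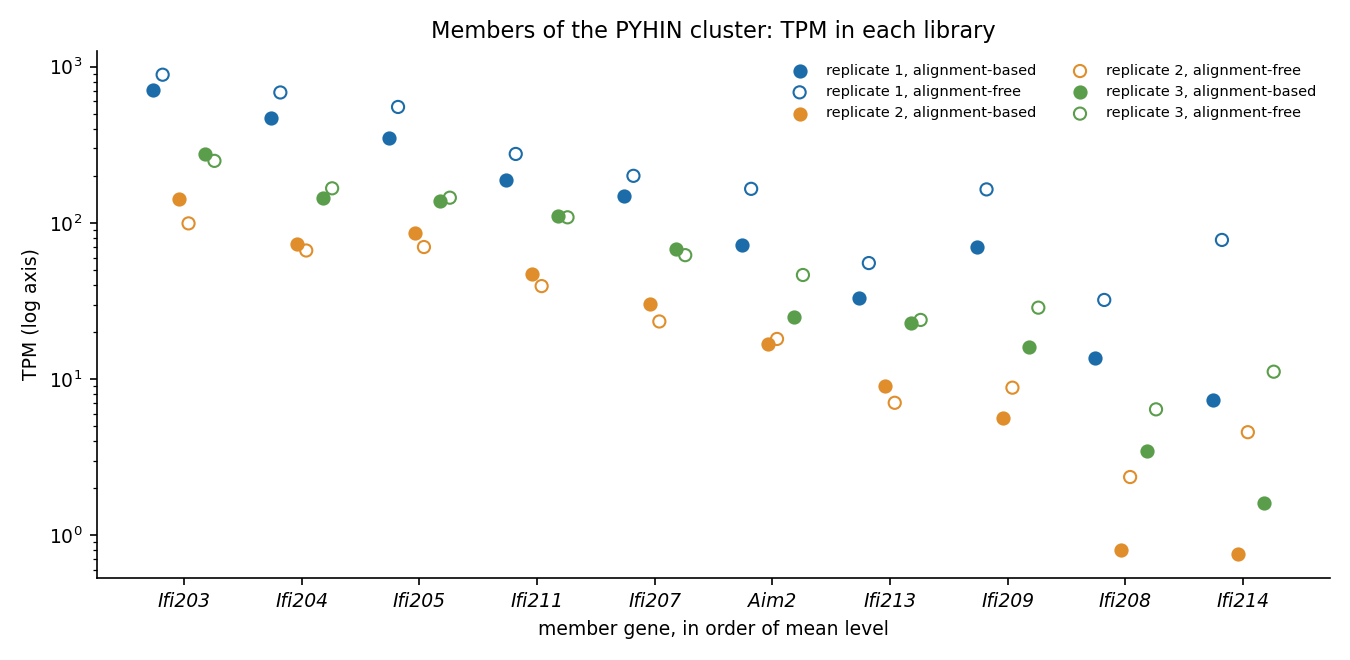
TPM (log axis) of each member in each library, with filled points for the alignment-based and open points for the alignment-free values. Ifi203 runs from 143 to 710 TPM and Ifi214 from 0.76 to 7.31 TPM in the alignment-based table, and replicate 1 is the highest library for each of the 10 genes.

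Every member had its highest TPM in replicate 1, the next in replicate 3 and the lowest in replicate 2, in both quantifications. The reference median ran in this order too, at 5.50, 4.93 and 3.70 TPM, so the order of TPM is not particular to the members. The order also held for the levels of all 10, although levels are taken relative to the median of each library. Among all genes tested, 25.1% had levels in this order. The level in replicate 1 exceeded that in replicate 2 by 1.30 (Ifi213) to 2.95 (Ifi209) log2 units, and by more than 1 log2 unit in 10 of 10 members, against 10.7% of all genes tested. Ifi209 ranked 12th and Ifi208 30th of 13434 genes in this difference.

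The SD of log2 CPM between libraries (TMM-normalised) was 0.52 in Aim2 and 0.57 in Ifi213, the narrowest of the members. It was 1.32 in Ifi214, 1.47 in Ifi209 and 1.65 in Ifi208, the widest. The median was 0.75 over the members and 0.40 over all genes tested, and 15.7% of all genes tested had a wider spread than the median member. With alignment-free counts the spread of Ifi208 was 1.09. Scaled by library size alone, the spread was over 1.5 times as wide in 7 members: 1.02 in Aim2, 1.04 in Ifi213, 1.13 in Ifi211, 1.21 in Ifi205, 1.24 in Ifi203, 1.25 in Ifi207 and 1.46 in Ifi204.

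The shares within the family moved less than the sums. Ifi203 held 34.5, 34.6 and 34.1% of the family's TPM in replicates 1 to 3, and Ifi207 held 7.18, 7.38 and 8.45%. Ifi204 held 22.8% in replicate 1 and 17.8 and 18.0% in the others, and Ifi209 held 3.40, 1.36 and 2.01%. The members therefore varied largely together, with Ifi209, Ifi208, Ifi214 and Ifi204 relatively higher in replicate 1.

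Other measures ran in the same order as the members. Starting RNA was 1 µg in replicate 1, 500 ng in replicate 3 and 250 ng in replicate 2, and the share of counts in protein-coding genes was 68.4, 50.3 and 40.2%. Ifnb1, which encodes interferon β, had 8.32, 2.91 and 4.18 TPM in replicates 1 to 3. The median level of the type I interferon signalling list was 3.83, 3.30 and 3.36. The median level of the macrophage markers ran the other way, at 1.96, 3.15 and 3.03. Their summed TPM, at 1157, 670 and 869, ran in the order of the members. The level of Il1b in replicate 1 less that in replicate 2 was -0.08. The part of these in the members' spread was not tested.

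Along the chromosome, the members span 681 kb from the start of Aim2 to the end of Ifi205. Of the 10, 3 lie on the plus strand (Aim2, Ifi209, Ifi208) and 7 on the minus strand. The 5 members with the highest levels (Ifi203, Ifi204, Ifi205, Ifi211 and Ifi207) all lie on the minus strand from Ifi207 onwards, and the 5 lower ones lie on the side of Aim2. Low and high genes were also neighbours: Ifi202b, between Ifi203 and Ifi205, had 1.34, 1.02 and 1.26 TPM (level -1.36 ± 0.13). Its TPM had the order of the members across libraries, but its levels, -1.47, -1.22 and -1.39 in replicates 1 to 3, did not.

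**Figure D2:**
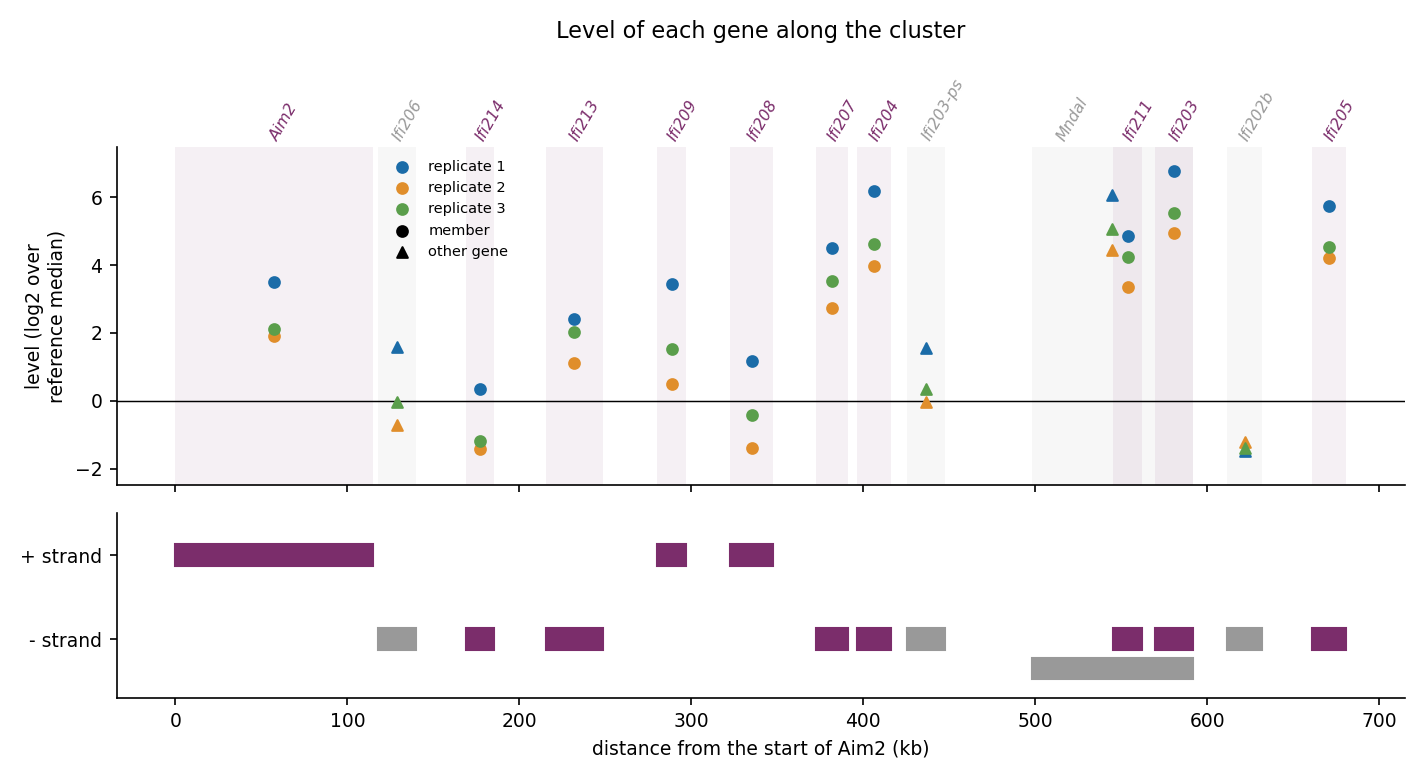
Level (log2 over the reference median) of each gene in each library against the distance in kb from the start of Aim2, with the genes drawn by strand below. Circles are members and triangles other PYHIN genes, and the high levels of Ifi207, Ifi204, Ifi211, Ifi203 and Ifi205 lie to the right of the lower members.

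Of the other PYHIN genes, 4 of the 8 symbols sought were in the annotation used. Mndal was above, with 438, 102 and 196 TPM and a level of 5.2 ± 0.82 (limma treat, adjusted p = 6.49e-05), which places it between Ifi203 and Ifi204. Ifi206 had 18.6, 1.85 and 4.78 TPM and the pseudogene Ifi203-ps had 18.0, 3.56 and 6.52 TPM, and neither was called. Of 12 genes that flank the cluster, 6 had enough counts to be tested. Tagln2 was above (29.0 ± 4.77 TPM, level 2.39), 2 genes, Kcnj9 among them, were below, and Slamf8, Igsf9 and Pigm were not called. Fcer1a and Ackr1 were listed at 0.

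The genes whose levels in the 3 libraries lay nearest to those of Ifi203, by Euclidean distance among protein-coding genes outside the family, were Mx1 (distance 0.23), Ptprc (0.31) and Rsad2 (0.36). Mx1 had 779, 157 and 251 TPM and Rsad2 had 870, 166 and 265 TPM in replicates 1 to 3. Mx1 and Rsad2 are genes of the interferon response, and Ptprc encodes the leukocyte surface phosphatase CD45. The measure uses 3 libraries and describes only those.

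The isoform tables list 37 transcripts of the 10 genes, of which 21 are typed protein-coding, 6 retained intron, 3 nonsense-mediated decay and 7 processed transcript. Retained-intron transcripts keep an intron in an otherwise spliced RNA. They were given much of the signal in 5 of the 6 members that have one. Reads of unspliced RNA over the same intron would also be given to them, and these sources were not told apart. In the alignment-based table, Ifi204-202 held 49.0 ± 6.95% of the TPM of Ifi204 (SD, n = 3), Ifi205-202 held 54.9 ± 6.58% of Ifi205, Ifi208-203 held 55.6 ± 6.83% of Ifi208, and Ifi203-207 held 33.7 ± 11.0% of Ifi203. Ifi214-204 held 73.0 ± 10% of Ifi214, and Ifi213-203 only 3.86 ± 1.2% of Ifi213.

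Over the 6 genes the median share was 51.9%, and over all 5750 protein-coding genes with such an isoform and a mean of at least 1 TPM it was 45.7%. A share of this size was thus common among genes of this fraction. Ifi203 changed most between libraries: its retained-intron isoform had 330 TPM in replicate 1 against 224 TPM for its main coding isoform Ifi203-205, but 39.0 against 58.6 TPM in replicate 2 and 75.3 against 117 TPM in replicate 3. Ifi207 and Ifi211 have no isoform of a noncoding type, and all their TPM was in protein-coding transcripts.

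**Figure D3:**
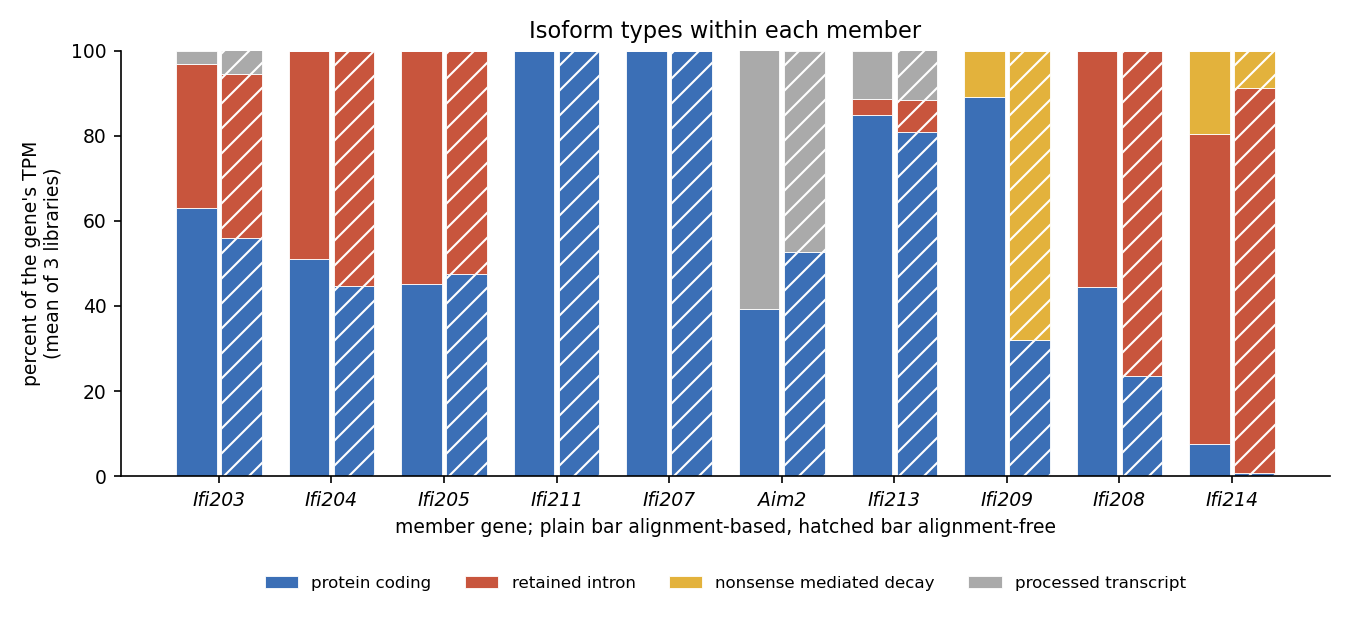
Percent of each member's TPM in each annotated isoform type, as the mean of 3 libraries, with plain bars for the alignment-based and hatched bars for the alignment-free tables. Retained-intron isoforms hold 73.0 and 90.5% of Ifi214, and the nonsense-mediated decay isoform of Ifi209 holds 10.9 and 68.1% of it.

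The 2 quantifications were compared because close paralogs can share reads. Sharing was measured as the percent of a gene's distinct 31-base words (31-mers) of annotated transcript sequence that also occur in another member. It was 78.9% in Ifi211, which shares with Ifi205 and Ifi204, and 46.9% in Ifi209, nearly all with Ifi214. It was 30.8% in Ifi208, shared with Ifi213, then 25.2% in Ifi204, 23.3% in Ifi213, 22.1% in Ifi205, 20.4% in Ifi214 and 12.2% in Ifi207. Ifi203 shared 2.60% with members but 21.9% with any gene, mostly Ifi203-ps, and Aim2 shared none with another member. Values of genes that share sequence are uncertain to the extent that reads could be split among them.

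Over all genes the alignment-free log2(TPM + 1) was higher than the alignment-based by a median of 0.69, -0.03 and 0.31 in replicates 1 to 3. In each of the 10 members the signed difference was also highest in replicate 1. Of the 10 members, 1 was called as differing more than 2-fold, Ifi214, and it was higher in the alignment-free table. Among 13427 genes tested, 4.24% were called higher and 0.499% lower in the alignment-free table.

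Ifi214 had 77.8, 4.57 and 11.2 TPM in the alignment-free table, against 7.31, 0.76 and 1.61 in the other. The difference was 3.25, 1.66 and 2.22 log2 units in replicates 1 to 3, with a mean of 2.38 ± 0.80 (limma treat, adjusted p = 1.15e-05; 0.245 without a minimum count). With each table centred on its protein-coding median in each library, the difference of Ifi214 was 1.82 (limma treat, adjusted p = 0.043). Its counts were 5703, 1082 and 1637 against 412, 82.3 and 119, which is 13.8, 13.2 and 13.8 times as many. The protein-coding genes as a whole had 1.62, 1.58 and 1.54 times as many counts in that table. Nearly all of the Ifi214 reads were given to 1 isoform, the retained-intron transcript Ifi214-204, with 5590, 1033 and 1575 alignment-free counts and 374, 73.0 and 95.4 alignment-based counts.

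Little of the sequence of that isoform was found in annotated transcripts of other genes. Of its 31-mers, 2.64% occur in annotated transcripts of any other gene and 95.3% in no other annotated isoform. Of those of the coding isoform Ifi214-203, 47.2% occur in other genes. The search held annotated transcripts only, and the paralog Ifi209 has no annotated retained-intron isoform. Whether the retained-intron isoform of Ifi214 resembles introns of Ifi209 was therefore not tested. The 5′ end of that isoform lies near the start of the gene whose upstream window is printed above. The coding isoform had 0.48, 0.06 and 0.13 TPM in the alignment-based table and 0.54, 0.04 and 0.08 in the alignment-free table. So in both tables the level of Ifi214 came mostly from reads given to the retained-intron transcript, which may include unspliced RNA. The coding transcript was near 0 in both.

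Ifi208 was higher in the alignment-free table by 0.94 ± 0.22 log2 units, and Ifi209 by 0.86 ± 0.33, in 3 of 3 libraries each, and neither passed the 2-fold bound. Ifi208 had 2.80, 6.22 and 3.52 times as many counts there. In Ifi209 the tables disagreed on the isoform. The nonsense-mediated decay isoform Ifi209-202 had 4.57, 0.55 and 2.65 TPM in the alignment-based table and 109, 6.00 and 19.9 in the other. It is a transcript in which 8.63% of the 31-mers are its own and 49.8% occur in other genes.

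Ifi207 matched as a gene and not as isoforms. Its difference was -0.02 ± 0.41, but Ifi207-202 was listed at 0 in all 3 alignment-based libraries and had 70.8, 6.00 and 15.8 TPM in the alignment-free table. Only 0.92% of the 31-mers of Ifi207-202 occur in no other isoform, since nearly all belong to Ifi207-201 as well. Aim2 differed by 0.72 ± 0.55 as a gene. Most of its counts were given to coding isoforms that differed by table: Aim2-204 held 70.9% of its expected counts and Aim2-202 held 57.9% of its alignment-free counts. These isoforms start at 173455354 and 173350879, away from the Aim2 upstream window printed above, which ends at 173420603. That window therefore does not describe the sequence before their starts.

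Ifi211, the member with the most shared sequence, differed by 0.10 ± 0.42 log2 units. Ifi203, Ifi204, Ifi205 and Ifi213 differed by -0.11, 0.20, 0.15 and 0.15. Ifi209 and Ifi208, which followed Ifi211 in shared sequence, followed Ifi214 in the size of the difference, as the plot of both shows. Aim2, which shared none with another member, came next in the difference, at 0.72. The alignment-based table also gives a posterior SD of each count. It was at most 1.67% of the posterior mean count in any member and library, reached in Ifi214, and 0.78 to 1.07% in Ifi211. This stated error was far below the difference of the tables for Ifi214.

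**Figure D4:**
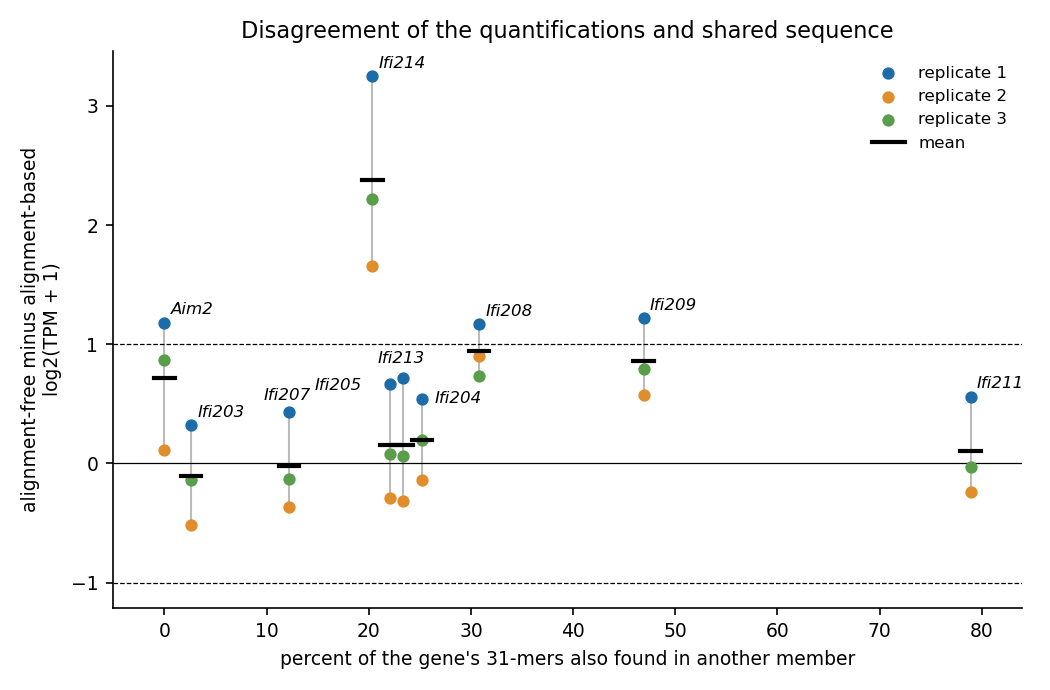
Alignment-free minus alignment-based log2(TPM + 1) of each member in each library (points) with the mean (bar), against the percent of its 31-mers found in another member. Dashed lines mark a 2-fold difference. Ifi214 stands at a mean of 2.38 with 20.4% shared, and Ifi211 at 0.10 with 78.9% shared.

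The genes that act with the family were read from gene lists. Over all genes tested, 21.3% were above and 21.3% below. Of 12 genes of the AIM2 inflammasome and related sensors, 6 were above and 0 below, with a median level of 1.59. Il1b, the cytokine that caspase-1 matures, had 252, 193 and 199 TPM, a level of 5.24 ± 0.15. Casp4, the mouse sensor of intracellular lipopolysaccharide also called caspase-11, had 506, 91.3 and 180 TPM (level 5.17 ± 1.02). Nlrp3, Gsdmd (the pore-forming gasdermin D), Nlrp1b and Casp1 were also above, at levels of 5.07, 4.15, 3.28 and 1.95.

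Pycard, the adaptor through which Aim2 recruits caspase-1, had 7.90, 2.13 and 3.01 TPM and a level of -0.23 ± 0.59, and was not called. Il18 had 15.3, 8.47 and 14.1 TPM (level 1.23 ± 0.19) and Nlrc4, the lowest of the list, had 2.43, 3.82 and 3.60 TPM. Neither was called. Aim2 was thus higher than Pycard in each library, by 72.3 against 7.90, 16.7 against 2.13 and 24.9 against 3.01 TPM. The gap was smaller in expected counts, at 599 against 398, 336 against 206 and 422 against 227. Effective lengths were 591 to 797 bases in Aim2 and 3540 to 3590 in Pycard. Processed transcripts, which are not typed protein-coding, held a mean of 60.7% of Aim2's TPM and 13.4% of its expected counts.

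The 19 symbols of cytosolic DNA sensing included second names of Cgas and Tmem173, which were the symbols not found. The other 17 were in the annotation and 16 were tested. Of these, 5 were above and 2 below, where 21.3% of all genes tested were above and 21.3% below. The median level was 0.40. Those above were the kinases Ikbke (750 ± 71.2 TPM, level 7.05) and Tbk1 (92.6 ± 34.9 TPM, level 3.99), the nucleotide hydrolase Samhd1 (109 ± 116 TPM, level 3.71), Irf3 (level 2.55) and the exonuclease Trex1 (level 1.63). Samhd1 spread like the members, at 242, 27.3 and 57.7 TPM. Cgas, the sensor that makes cyclic GMP-AMP, had 11.0, 2.52 and 4.82 TPM, and Tmem173, which encodes STING, had 4.98, 1.21 and 0.93 TPM. Neither was called (levels 0.15 and -0.94). Enpp1 and Xrcc6 were below, and Xrcc5 was listed at 0.

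Of 11 genes of type I interferon signalling, 10 were above, with a median level of 3.55. Irf1 had 326 ± 126 TPM, Stat2 206 ± 52.8 and Irf8 94.2 ± 70.9 (SD, n = 3). The receptor chains Ifnar1 and Ifnar2 had levels of 3.55 and 3.42, and Irf9, which joins Stat2 in the complex that binds the ISRE, had the lowest level among those above, 2.08. The exception was Ifnb1, at a level of 0.02 ± 0.43. In all 3 libraries the receptor and factor genes were therefore read well over the reference while Ifnb1 lay near it.

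**Figure D5:**
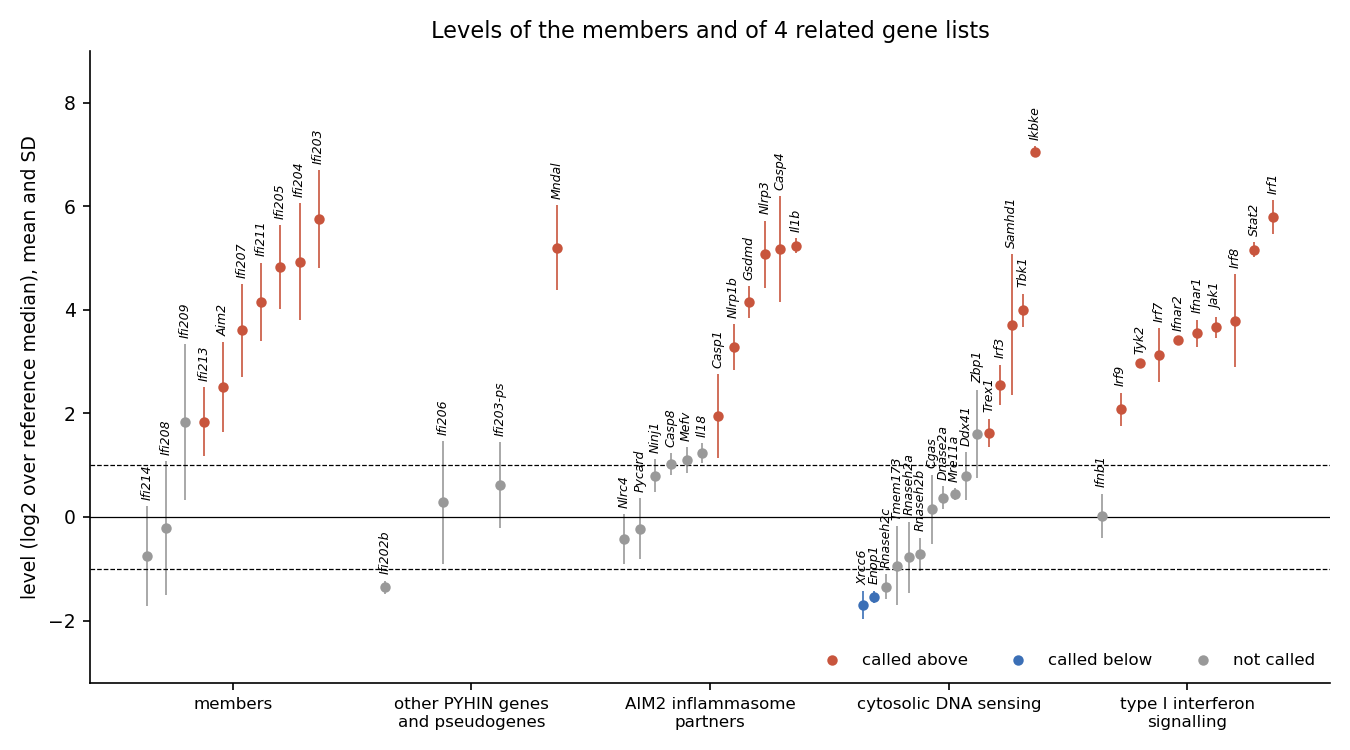
Level (log2 over the reference median, mean and SD of 3 libraries) of the tested members and of the genes shown from 4 related lists, coloured by call. Members run from -0.75 (Ifi214) to 5.75 (Ifi203), and Pycard, Cgas and Tmem173 lie near or below 0. Dashed lines mark the bound of 1 log2 unit on either side.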

How the data were processed

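Each library came with a gene table, a transcript table and a second transcript table. The deposited expected counts and TPM of the first pair were made from transcriptome alignments (mm10, GENCODE M21), per the deposited description files, with columns as RSEM names them per the file headers; the deposited posterior SD of each count is used as a score. The other transcript table holds estimated counts and TPM made without an alignment, with columns as kallisto names them per the file headers. Software version, strand setting and multi-mapping rule: each is not given in the sources used here.

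Levels, log2(TPM + 1) minus the median of 10530 protein-coding genes in each library, and paired differences of the tables were tested with limma 3.58.1 (treat, bound 1 log2, R 4.3.3), Benjamini-Hochberg adjusted at 0.05 over genes whose expected counts averaged 10 or more. The pseudocount understates differences of low genes. Counts were rounded for edgeR 4.0.16 (TMM, prior count 2) and DESeq2 1.42.0. Tests were checked on simulated data. Shared 31-mers came from M21 transcripts on either strand; promoters from RefSeq; upstream identity from global alignment. The members and lists were chosen with earlier results of these data known. All members are named; in each list, the highest and lowest genes and the fixed partners of Aim2. A few genes of the lists are counted but not reported here by name. A count of 0 allows up to 3 counts (0.266, 0.12 and 0.152 CPM in replicates 1 to 3, counting error only). Alternatives were other TPM, filters, pseudocounts and references, edgeR, and leaving out each replicate.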

Additional observations from a re-analysis of the deposited data

How the results depend on the processing

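Of 424 recomputed values, 361 kept their direction and side of the threshold or moved by less than the limit set for them. Leaving out each replicate gave 6 to 8 members called above, 0 below, 1 called higher in the alignment-free table, and a summed TPM of 609 to 1432. Divided by the reference median, the sum was 216. Without a minimum count, 0 members were called higher in the alignment-free table, 10 inflammasome partners and 8 DNA-sensing genes were above, and 0 DNA-sensing genes were below. With a minimum of 100, 5 members were above, the fewest under any alternative, 3 DNA-sensing genes were above and 1 below, and 0 flanking genes were above and 1 below. The posterior mean TPM, the alignment-free TPM and the median of all genes as reference each left 1 DNA-sensing gene below, and leaving out a replicate left 0 to 2. Leaving out a replicate left 1 to 3 flanking genes below. With a pseudocount of 0.1, the posterior mean TPM and the edgeR test, 1 other PYHIN gene was below.

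The sign of Ifi208's level turned without a minimum count (0.74), with the alignment-free TPM (0.18), with edgeR (0.18) and without replicate 2 (0.37; leaving out a replicate gave -0.89 to 0.37), and that of Ifi214 without a minimum count (0.20) and with the alignment-free TPM (1.07). Aim2 was not called with a minimum of 100 (level 1.44, adjusted p = 0.275 by limma treat, where fewer genes raise the reference). Centring both tables turned the differences of Ifi204 (-0.35), Ifi205 (-0.40), Ifi211 (-0.46) and Ifi213 (-0.40). Leaving out 1 replicate gave differences on both sides of 0: -0.33 to 0.09 in Ifi203, -0.11 to 0.37 in Ifi205, -0.25 to 0.15 in Ifi207 (0.03 without replicate 3), -0.14 to 0.26 in Ifi211 and -0.13 to 0.39 in Ifi213. The posterior mean TPM turned that of Ifi207 (0.06). No value that turned was called on either side. The causes were not tested. The edgeR alternative was a threshold test built from quasi-likelihood F tests against both bounds, since glmTreat needs a second column in the design. No paired analysis was possible because the series holds 1 group, so no replicate numbers pair samples across groups; the comparison of the tables was within each library.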
